A study of Mus musculus with 6 samples.

Results

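To determine how the protein-coding set of the cytosolic ribosome behaved in microglia with forced PGC-1α expression, the cytosolic ribosomal protein genes were followed on arrays of 3 PGC-1αf/f and 3 mPGC-1α samples. The members were the genes whose mouse symbol follows the plain Rpl, Rplp, Rps naming scheme, which gave 75 of the 23462 genes with a named probe. They comprised 46 genes of the large subunit and 29 of the small subunit, measured by 136 probes. Each gene was represented by the probe with the highest mean signal.

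Both groups were male C57BL/6 mice labelled as 10 weeks old, and microglia were collected through the surface receptor P2RY12 by magnetic selection. In PGC-1αf/f mice, a transgene for PGC-1α and eGFP is present that stays silent without Cre. mPGC-1α mice carry the same transgene plus a tamoxifen-inducible Cre recombinase inserted into the Cx3cr1 locus, which is active in microglia and in other cells that use this locus. Littermates that lacked the Cre served as PGC-1αf/f controls. Per the study's methods, tamoxifen was given before the experiments and a waiting interval followed, and the labels do not state which samples received it. The effects of the transgene, of Cre itself and of the interrupted Cx3cr1 copy cannot be told apart in this design. Nothing in the labels states that the samples of a group came from separate mice, so the tests measure the spread between these samples, which may be technical.

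The cytosolic ribosome translates mRNA into protein. Its small subunit reads the mRNA, and its large subunit joins the amino acids and holds the tunnel through which the new chain leaves. The ribosomal proteins are made in near-equal amounts. Most of their mRNAs begin with a C and an unbroken run of pyrimidines, the 5′ terminal oligopyrimidine (TOP) motif, through which mTORC1 and the binding protein LARP1 set their translation. Control at this step changes protein output without a change in mRNA, and an array measures mRNA alone.

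The start sites of the genes were examined for this feature. RefSeq start windows of the mouse build GRCm38.p6 were held for 55 of the 75 genes, in 65 windows that run from 250 bases before to 50 bases after the annotated start. Windows of 30 bases are given for members described below, since they show the form of the tract in the genes that had one. Capitals mark the pyrimidine tract that holds a C followed by at least 4 pyrimidines within 5 bases of the annotated start. Rpl4 is shown as a gene without such a tract there, although its window opens with a C and a pyrimidine run further upstream. The rule thus depends on the annotated start.
Rpl14 (chr9:120571505-120571534, plus strand): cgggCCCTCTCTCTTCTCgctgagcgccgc
Rps15a (chr7:118116130-118116159, minus strand): tctttctgccaTCTTCCCTCgccggtgagt
Rpl19 (chr11:98026912-98026941, plus strand): gCTCTCCCCTTCgcagataatgggcggagc
Rps18 (chr17:33955648-33955677, minus strand): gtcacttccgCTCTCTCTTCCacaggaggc
Rpl15 (chr14:18270969-18270998, minus strand): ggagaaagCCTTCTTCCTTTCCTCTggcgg
Rps6 (chr4:86857350-86857379, minus strand): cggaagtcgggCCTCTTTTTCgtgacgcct
Rplp2 (chr7:141447639-141447668, plus strand): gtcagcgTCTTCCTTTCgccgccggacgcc
Rpl4 (chr9:64173375-64173404, plus strand): cttttcctgtgggagcagccgggtagagag

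A TOP start at the annotated base itself was present in 13 of the 65 windows (20%), against 2.51% of all 32851 windows. When the C was allowed to lie within 5 bases of the annotated start, it was present in 29 windows (44.6%) of 27 genes, against 18.3% of all windows. The letters CCGGAAG, the core of ETS family sites, were found on either strand in 35.4% of the member windows and in 8.86% of all. AAGATGGC, the core bound by YY1, was found on either strand in 10.8% of the member windows and in 2.75% of all. The GC box GGGCGG was present on either strand in 60.0% of the member windows and 35.7% of all, and the E-box CACGTG in 12.3% and 7.15%. TATAAA from 40 to 20 bases before the start was found in 0 of the 65 member windows and in 1.87% of all. TCAAGGTCA, the response element of the estrogen-related receptors that partner with PGC-1α, was found on either strand in 0 of the 65 and in 0.423% of all. At shares this low over all windows, 0 of 65 cannot show that either motif is rarer in the member windows. GC box and ETS letters can share bases in a window. Such matches describe letters, not bound sites.

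All array values below are log2 signals from which the 75th percentile of that array was subtracted, a unit in which 1 stands for a doubling. This percentile lay between 1012 and 2138 intensity units in the PGC-1αf/f group and between 1276 and 1667 in the mPGC-1α group, and 0 spots were saturated on any array. The targeted gene Ppargc1a gave 0.19, -0.44 and -1.21 in PGC-1αf/f samples and 0.57, 0.28 and 0.08 in mPGC-1α samples, which overlapped, with a difference of 0.80 (limma adjusted p = 0.306). Cx3cr1, which carries the Cre, differed by -0.51 (adjusted p = 0.194). All 10 microglial markers were well above background on every array, with a median log2 fold change of -0.20, and 9 of them lay below 0. Among the markers of blood leukocytes, 18 of 21 were well above background on all arrays, with a median log2 fold change of 1.08. The summed level of the 17 with a value on every array was 5.08 on the array of PGC-1αf/f replicate 3, against 7.05 and 7.25 in the other controls and 7.24 to 7.55 in mPGC-1α samples. The marker lists of the other cell types had median log2 fold changes of 0.31 (border macrophages), 0.14 (neurons), 0.03 (astrocytes), -0.61 (oligodendrocytes), 0.48 (endothelial and mural cells) and 0.12 (erythroid cells). The array of PGC-1αf/f replicate 3 also had the lowest mean correlation with the others, at 0.928 against 0.962 to 0.972. The array of mPGC-1α replicate 3 had 0 of 4 Y-linked genes well above background, although it is labelled male, against 4 of 4 on every other array. Its added spike transcripts read 2.09, against 0.86 to 1.15 elsewhere. Xist, transcribed from the X chromosome, did not single it out. On this array 1 Xist probe was well above background, as on those of PGC-1αf/f replicate 2 and mPGC-1α replicate 2. The median changes of the gene set, the P stalk, the exit tunnel and the mRNA path are given with and without both arrays numbered 3.

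Next, the ribosomal protein genes were compared between the groups. Of the 75 genes, 74 were well above background on all 6 arrays and were tested. The exception was Rpl37, a large subunit protein whose only probe failed the background test on every array, with values from -5.57 to -4.27. None of the 74 tested genes passed a limma adjusted p of 0.05, against 0.0792% of all 25257 tested probes (0.0713% higher and 0.00792% lower in mPGC-1α samples). At an unadjusted p under 0.05, 1 passed, on the higher side, against 16.7% of all tested probes (7.53% higher and 9.21% lower). The smallest adjusted p among them was 0.282. The median log2 fold change of the genes, mPGC-1α minus PGC-1αf/f, was 0.13 (interquartile range 0.10 to 0.16), against -0.0026 over all tested probes. It was 0.13 both in the 45 tested genes of the large subunit and in the 29 of the small subunit. Fitted changes were above 0 in 71 genes and below 0 in 3, where 49.7% of all tested probes lay above 0 and 50.3% below, but under quantile normalization 44 lay above and 30 below, under normexp with quantile normalization 39 and 35, and with each array shifted by its median 36 and 38. In cell samples of this kind, fewer cells of a type and less RNA per cell cannot be told apart.

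**Figure D1:**
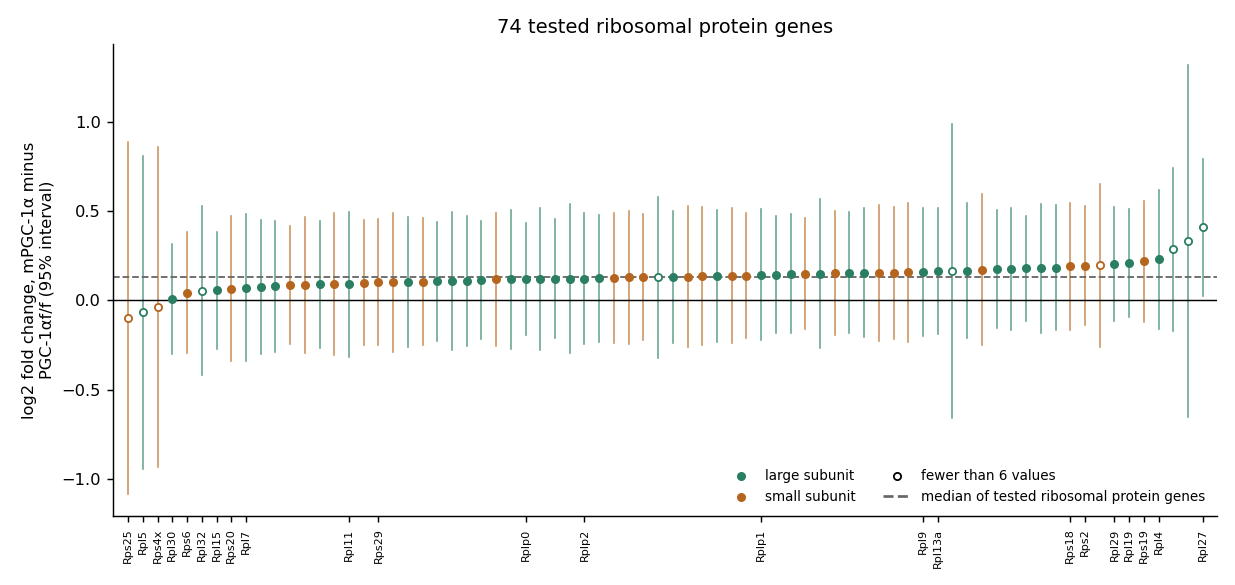
Log2 fold change (mPGC-1α minus PGC-1αf/f, vertical axis) of the 74 tested ribosomal protein genes in rising order, with names for some of those described in the text, 95% limma intervals as bars, coloured by subunit, open circles for genes with fewer than 6 values. All intervals but that of Rpl27 cross 0, and the dashed line marks the median of 0.13.

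The intervals show what size of change these arrays leave possible. The 95% limma interval of 73 of the 74 genes held 0. Among the 64 genes with a value on all 6 arrays, every interval lay between -0.34 and 0.62, so that all 64 excluded a doubling or a halving under this scaling. The standard error of their log2 fold changes ranged from 0.12 to 0.18, with a median of 0.15. The other 10 tested genes lacked at least 1 value because the scanner software had marked their spots as outliers, and their intervals reached from -1.09 to 1.31. The 3 genes with a fitted change below 0 were all of this kind. They were Rps25 at -0.10 from 2 values, Rpl5 at -0.068 from 4 and Rps4x at -0.037 from 3. Another Rps4x probe with 6 values gave 0.084.

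Rpl27, a protein of the large subunit, was the single gene at an unadjusted p under 0.05 and is named for that reason, after its values were seen. Its probe gave 3.59 and 3.75 on the arrays of PGC-1αf/f replicates 2 and 3, with no value for replicate 1, and 3.98, 4.06 and 4.19 on the mPGC-1α arrays. The measured values did not overlap, and the difference was 0.41 (SE 0.16, limma adjusted p = 0.282). A second Rpl27 probe with all 6 values gave 3.48, 3.27 and 2.94 in PGC-1αf/f samples and 3.40, 3.27 and 3.57 in mPGC-1α samples. On that probe the groups overlapped and the difference was 0.18 (SE 0.18, adjusted p = 0.618).

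Among the 64 genes with 6 values, 5 had groups that did not overlap, all higher in mPGC-1α samples under the reported scaling, and 59 overlapped. Over all probes with 6 values, 25.2% did not overlap, 11.4% with mPGC-1α higher and 13.7% with mPGC-1α lower. The 5 genes were Rps19, Rpl19, Rpl29, Rpl14 and Rps15a, and none of them passed the test.

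Among the 64 genes with 6 values, those with the highest fitted changes came from both subunits. Higher values than theirs were fitted for 3 large subunit genes with missing values, Rpl27, Rpl23 at 0.33 from 2 values and Rpl13 at 0.29 from 4, of which the last 2 were named after their values were seen. Rpl4, whose extended loop lines the exit tunnel, gave 4.05, 3.83 and 3.60 in PGC-1αf/f samples and 4.19, 3.93 and 4.04 in mPGC-1α samples. The highest control array lay above 2 of the mPGC-1α arrays, and the difference was 0.23 (SE 0.16, limma adjusted p = 0.491). Rps19, a protein of the small subunit head that is the most frequently mutated gene in Diamond-Blackfan anaemia, gave 4.15, 4.03 and 3.90 against 4.17, 4.16 and 4.41. Its groups were separated by a narrow gap, between the array of PGC-1αf/f replicate 1 and that of mPGC-1α replicate 2, with a difference of 0.22 (SE 0.14, adjusted p = 0.455). Rpl19, which reaches from the large towards the small subunit, gave 4.18, 4.21 and 4.12 against 4.32, 4.30 and 4.51, a difference of 0.21 (SE 0.13, adjusted p = 0.432). Rpl29, another large subunit protein, gave 4.12, 3.98 and 3.88 against 4.15, 4.13 and 4.32, a difference of 0.20 (SE 0.13, adjusted p = 0.459). In all 4 the array of PGC-1αf/f replicate 3 was the lowest. Rps2, at the entry of the mRNA channel, and Rps18, in the small subunit head, both differed by 0.19, with adjusted p of 0.497 and 0.534 and overlapping groups.

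At the other end, fitted changes lay close to 0. Rpl30, at the interface with the small subunit, gave 4.15, 3.97 and 4.07 in PGC-1αf/f samples and 4.04, 3.99 and 4.19 in mPGC-1α samples. Its arrays spanned 0.21, the narrowest range of the 64 genes, and the difference was 0.0069 (SE 0.13, limma adjusted p = 0.983). Rps6, the classic substrate of the S6 kinases downstream of mTORC1, gave 4.03, 3.87 and 4.01 against 4.0, 3.85 and 4.19, a difference of 0.042 (SE 0.14, adjusted p = 0.899). Rpl15, needed for maturation of the large subunit, Rps20, a head protein that is tagged with ubiquitin when ribosomes collide, and Rpl7 differed by 0.055, 0.065 and 0.070. Their adjusted p lay between 0.858 and 0.867, and the groups of all 5 genes overlapped. The pyrimidine tracts shown above occurred at both ends of the order, in Rpl19 and Rps18 as in Rpl15 and Rps6. The place of Rpl15 and Rps6 in this order depended on the probe. Another probe with 6 values gave 0.18 for Rpl15 and 0.20 for Rps6. The 27 genes with a TOP start within 5 bases had a median log2 fold change of 0.14, and the 27 tested genes with a window but no such start had 0.13.

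Moreover, the genes moved together from array to array. Each gene with 6 values was set against its own mean over the arrays. The median deviation of the 64 genes was 0.12, -0.07 and -0.23 on the arrays of PGC-1αf/f replicates 1 to 3 and 0.04, -0.05 and 0.21 on those of mPGC-1α replicates 1 to 3. On the array of mPGC-1α replicate 3, 100% of the genes lay above their own mean, and it was the highest array for 81.2% of them. On the array of PGC-1αf/f replicate 3, 3.12% lay above their mean, and it was the lowest array for 92.2%. The array of PGC-1αf/f replicate 1 stood above the mean for 93.8% of the genes, so the control group alone held both a high and a low array. The range of a gene over the 6 arrays was 0.44 at the median and 0.63 at most, for Rps16, against a median of 0.67 over all tested probes with 6 values.

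**Figure D2:**
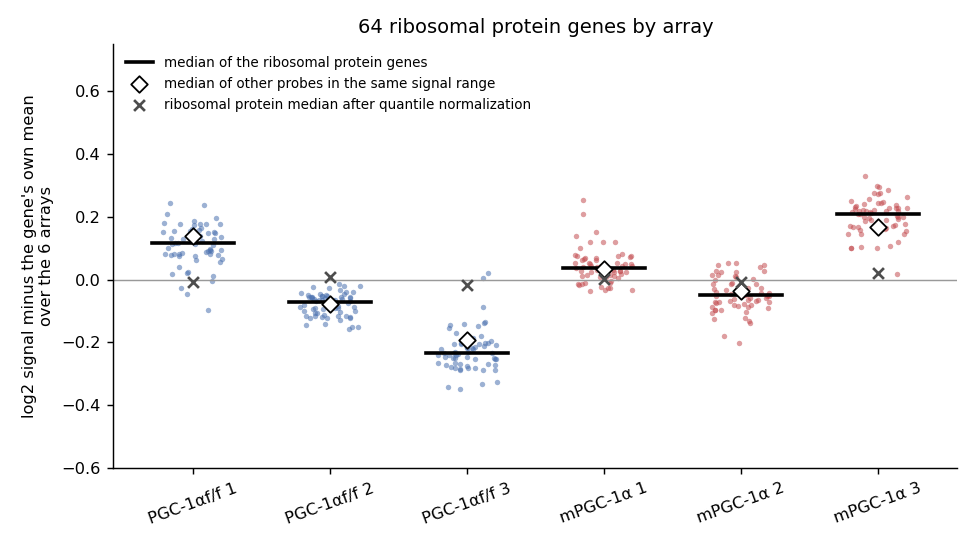
Deviation of each of 64 ribosomal protein genes from its own mean over 6 arrays (log2 units, vertical axis) for each array, with black bars for the median, diamonds for the median of 589 other probes of the same signal range and crosses for the ribosomal protein median after quantile normalization. The points of an array sit together, from -0.23 at the median on PGC-1αf/f replicate 3 to 0.21 on mPGC-1α replicate 3, the diamonds lie close to the bars and the crosses lie near 0.

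This movement was shared with other probes of similar signal. Across the mean signals spanned by the 64 genes, from 3.68 to 4.94, lay 589 other tested probes with 6 values. Their median deviations were 0.14, -0.08 and -0.19 for PGC-1αf/f replicates 1 to 3 and 0.03, -0.04 and 0.17 for mPGC-1α replicates 1 to 3. Their median log2 fold change was 0.11, 83.9% of them lay above 0, and 0.679% passed at an unadjusted p under 0.05. The 22228 tested probes below that range had median deviations between -0.0099 and 0.03 on every array. After quantile normalization, which gives all arrays the same distribution of signals, the median deviations of the ribosomal protein genes lay between -0.02 and 0.02 on the 6 arrays.

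The size of the median change depended on the scaling and on single arrays, and its sign turned in 2 of 19 alternatives, the median shift and the one without both arrays numbered 3. It was 0.0066 under quantile normalization, 0.0080 under normexp with quantile normalization and -0.0025 with each array shifted by its median. That last scaling moved the median of all tested probes to -0.14. Without PGC-1αf/f replicate 3 the median change of the genes was 0.045, and without mPGC-1α replicate 3 it was 0.055. Without both of these arrays it was -0.025, with 24 genes above 0 and 46 below. Without PGC-1αf/f replicate 1 it was 0.21, and without mPGC-1α replicate 2 it was 0.20. All 6 arrays lay on 1 slide, the PGC-1αf/f arrays in its upper and the mPGC-1α arrays in its lower row, so slide row and group cannot be told apart. Columns 1 and 2 each held an array of both groups, and within column 1 the median difference of the 64 genes was -0.083, with 12 genes above 0, and within column 2 it was 0.033, with 42 above 0. The summed levels of 5 other marker lists were likewise at an extreme on the array of PGC-1αf/f replicate 3. Endothelial and mural markers (5 genes) read -0.13 there against 0.68 to 2.06 on the other arrays, and erythroid markers (4 genes) 3.54 against 4.33 to 5.22. Border macrophage markers (6 genes) read 3.04 against 3.14 to 3.96, and astrocyte markers (6 genes) 3.67 against 3.90 to 4.54. Oligodendrocyte markers (9 genes) read 4.54 there, against 4.19 and 4.16 on the other control arrays and 3.51 to 3.86 on the mPGC-1α arrays. Their level thus separated the groups. All 9 genes had fitted changes below 0, and 5 were lower at an unadjusted p under 0.05, where 9.21% of all tested probes were. The part of these levels and of the leukocyte level, also lowest on that array, was not tested.

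**Figure D3:**
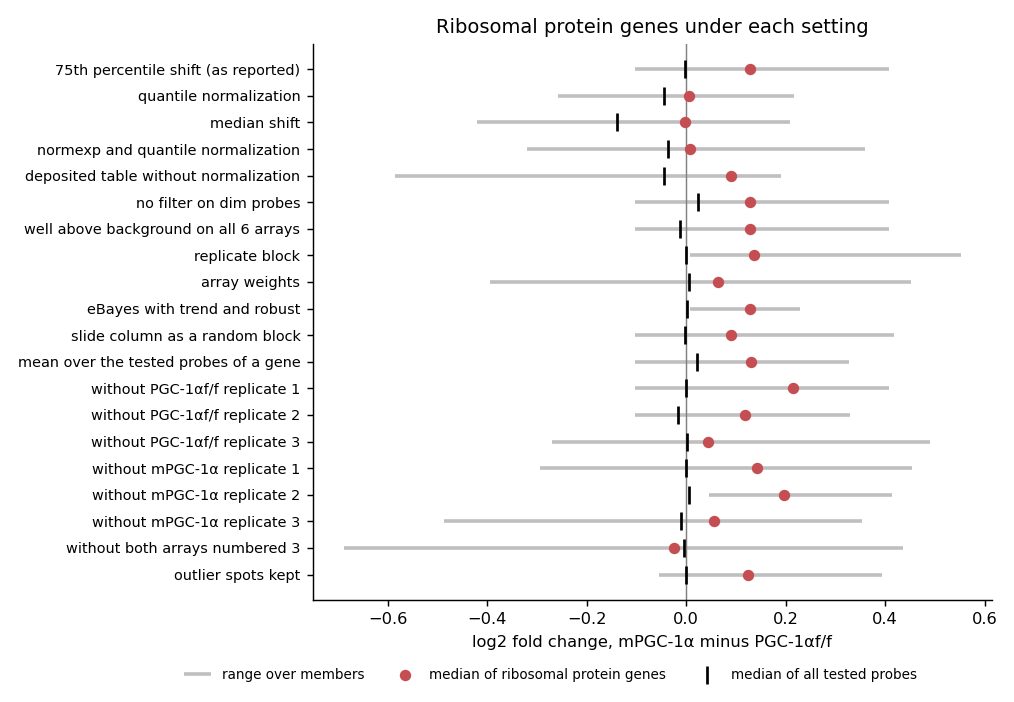
Median log2 fold change of the ribosomal protein genes (red), their range (grey) and the median of all tested probes (black tick) under the reported scaling and 19 alternatives. The red points run from -0.025 without both arrays numbered 3 to 0.21 without PGC-1αf/f replicate 1.

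Next, the genes were grouped by the place of their proteins in the ribosome. The P stalk, which recruits the elongation factors, is built of Rplp0, Rplp1 and Rplp2. Rplp0 gave 4.10, 3.97 and 3.81 in PGC-1αf/f samples and 4.08, 4.03 and 4.12 in mPGC-1α samples. Rplp1 and Rplp2 followed the same order of control arrays, and the 3 differences were 0.12, 0.14 and 0.12, with limma adjusted p from 0.654 to 0.711 and overlapping groups. At the exit tunnel and its port, the 8 proteins had differences from 0.11 (Rpl17) to 0.23 (Rpl4), and on the mRNA path and in the decoding region the 8 proteins had differences from 0.09 (Rps9) to 0.19 (Rps2). None of these 16 genes passed the test. The medians of the P stalk, the exit tunnel and the mRNA path were 0.12, 0.15 and 0.12 as reported, 0.013, 0.023 and 0.0014 under quantile normalization, and -0.012, 0.012 and -0.011 with each array shifted by its median. Without both arrays numbered 3 they were -0.032, -0.0090 and -0.058, with 1 of 3, 2 of 8 and 1 of 8 genes above 0.

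Rpl5 and Rpl11 form the 5S particle with 5S ribosomal RNA, which binds MDM2 when ribosome assembly fails and thereby frees p53. Rpl11 gave 4.54, 4.38 and 4.16 in PGC-1αf/f samples and 4.46, 4.22 and 4.67 in mPGC-1α samples, a difference of 0.09 (SE 0.17, limma adjusted p = 0.812). Rpl5 had 4 values, 4.01 and 3.60 in PGC-1αf/f and 3.32 and 4.15 in mPGC-1α samples, which overlapped. The median of both genes was 0.011. Over the alternatives it ran from -0.40 without both arrays numbered 3, which leaves Rpl5 with 1 value a group, to 0.32 with the replicate block. Of the relay to p53, Cdkn1a, a p53 target whose product p21 halts the cell cycle, was higher by 3.00 in mPGC-1α samples (SE 0.19, limma adjusted p = 0.00726). It gave -1.61, -1.63 and -1.06 in PGC-1αf/f samples and 1.42, 1.70 and 1.59 in mPGC-1α samples. This call was lost with the replicate block (adjusted p = 0.0803), without PGC-1αf/f replicate 2 (0.0606), without mPGC-1α replicate 2 (0.0796) and without mPGC-1α replicate 3 (0.0896), while the difference stayed between 2.65 and 3.43 in all 19 alternatives. Mdm2, another p53 target, differed by 0.09 and Trp53, which encodes p53, by -0.32, and neither passed the test. Mdm4 was not tested.

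The 13 members known as Diamond-Blackfan anaemia genes had a median log2 fold change of 0.13, from -0.068 (Rpl5) to 0.22 (Rps19), and none of them passed the test. This median was 0.0074 under quantile normalization, -0.0050 under normexp with quantile normalization, 3.7e-05 with the median shift and -0.037 without both arrays numbered 3, where 1 gene lay above 0 and 12 below. The 4 genes on the X chromosome were Rpl10, Rpl36a, Rpl39 and Rps4x, with differences of 0.078, 0.12, 0.11 and -0.037. The last came from a probe with 3 values, and the Rps4x probe with 6 values gave 0.084. On the array of mPGC-1α replicate 3, which lacked Y-linked signal, Rpl10, Rpl36a and Rpl39 gave 4.83, 4.23 and 4.53, against 4.60 to 4.75, 3.78 to 4.12 and 4.17 to 4.23 on the other mPGC-1α arrays and 4.45 to 4.86, 3.73 to 4.12 and 4.08 to 4.33 on the control arrays. These 3 genes lay 0.24 above their own means there at the median, where the 64 ribosomal protein genes lay 0.21 above theirs. Rps4x had no value on that array. Without both arrays numbered 3, the 3 X-linked genes that could be fitted all lay below 0, with a median of -0.067, and with the median shift all 4 did, with a median of -0.040.

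Several of these genes serve as reference genes in quantitative PCR, where a constant level is assumed. Across the 6 arrays Rplp0 ranged from 3.81 to 4.12, Rps29 from 4.07 to 4.46, Rpl13a from 4.17 to 4.63 and Rps18 from 4.33 to 4.83. Their differences between groups were 0.12, 0.10, 0.16 and 0.19, with limma adjusted p from 0.534 to 0.748. Rpl32 had 5 values, 4.08 and 3.65 in PGC-1αf/f and 3.99, 3.77 and 4.0 in mPGC-1α samples, a difference of 0.052 (adjusted p = 0.909). All 5 had overlapping measured values.

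Probes of the same gene mostly gave similar changes. In the 43 genes with at least 2 tested probes, the gap between the highest and the lowest log2 fold change was 0.06 at the median, and the sign differed in 5. Among the wide gaps were those of Rps2, whose probes gave 0.19 and -0.24, and of Rpl9, at 0.16 and -0.16. In both, the probe with the negative change lacked values, with 3 and 4 of 6. RefSeq names 306 pseudogenes for 61 of the 75 genes, with up to 24 for Rpl31. Probe sequences were not analysed here, so signal from pseudogene transcripts was not separated.

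Ribosomal proteins whose symbols fall outside the naming scheme were examined alongside. Rpsa, a small subunit protein also known as the laminin receptor, gave 4.14, 4.08 and 3.82 in PGC-1αf/f samples and 4.28, 4.18 and 4.34 in mPGC-1α samples. Its groups did not overlap, and the difference was 0.25 (SE 0.14, limma adjusted p = 0.397). Fau, which encodes a ribosomal protein fused to a ubiquitin-like protein, Rack1 and Rps3a1 differed by 0.15, 0.12 and 0.075. None of these 4 genes passed the test.

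Of the paralogs, gene copies that can replace or accompany the common protein, 6 of 8 were tested. Rps27l, a copy of Rps27 and a known p53 target, gave 2.56, 2.52 and 2.63 in PGC-1αf/f samples and 2.85, 3.03 and 3.34 in mPGC-1α samples. The groups did not overlap, and the difference was 0.50 (SE 0.16, limma adjusted p = 0.228). Rps27 itself, shown as the parent gene, gave 4.23, 4.02 and 4.0 against 4.19, 4.07 and 4.40, with overlapping groups and a difference of 0.14. Rpl39l, the copy of Rpl39 best known from testis, gave -2.61, -2.29 and -2.59 in PGC-1αf/f samples and -3.02, -3.06 and -3.39 in mPGC-1α samples. Every mPGC-1α array lay below every control array, and the difference was -0.66 (SE 0.17, adjusted p = 0.165), whereas Rpl39 overlapped between the groups. Rps27l kept its sign in all 19 alternatives, from 0.37 to 0.62, with adjusted p from 0.0808 to 1. Rpl39l did so from -0.80 to -0.55, with adjusted p from 0.042 to 0.969, and passed the threshold in 1 of the 19. Rpl22l1, Rpl7l1, Rpl36al and Rps4l differed by 0.085, 0.082, 0.069 and 0.050, and Rpl3l and Rpl10l failed the background test on all 6 arrays. Whether a copy and its parent gene differ in their change was not tested.

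**Figure D4:**
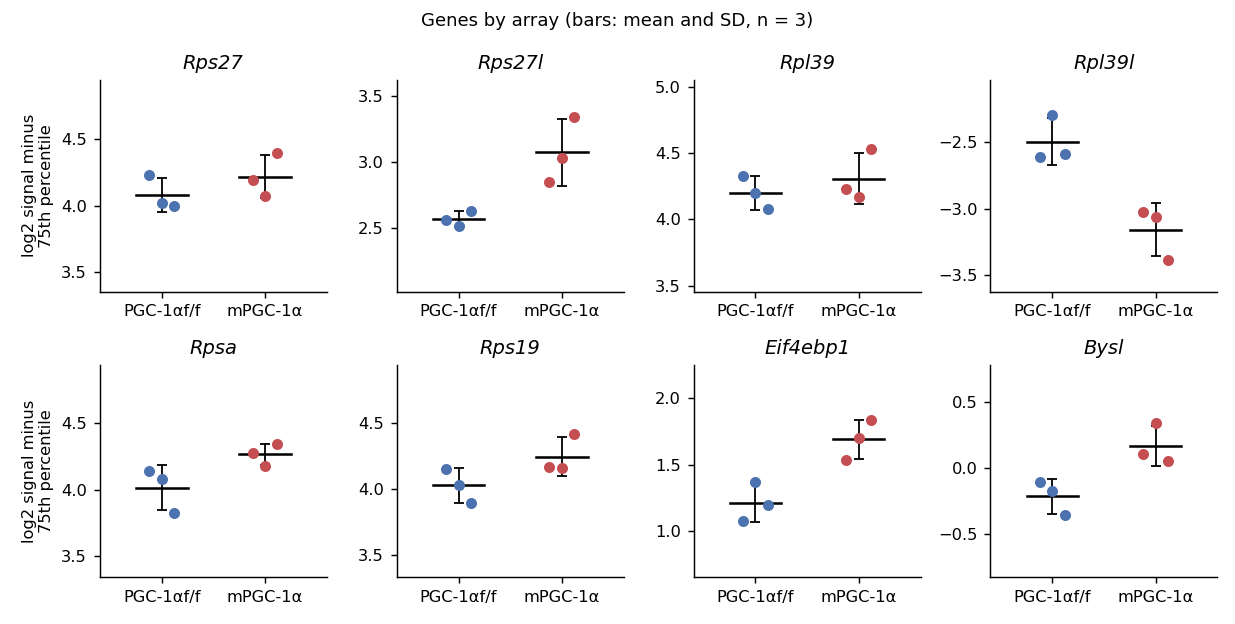
Log2 signal relative to the 75th percentile of its array (vertical axes, each spanning the same width) of Rps27, Rpl39, their copies Rps27l and Rpl39l, and Rpsa, Rps19, Eif4ebp1 and Bysl on the 3 arrays of each group, with the mean and SD. The groups do not overlap for Rps27l, Rpl39l, Rpsa, Rps19, Eif4ebp1 and Bysl, and they overlap for Rps27 and Rpl39.

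Finally, genes that make, use or control ribosomes were examined, as lists written with earlier results of these data known. Among 15 translation factors and partners with TOP mRNAs, 0 passed the test and the median log2 fold change was 0.09. Their fitted changes were above 0 in 14, from -0.040 for Eef1a1, the tRNA-delivering elongation factor, to 0.36 for Nap1l1, but with each array shifted by its median 4 were above 0 and 11 below. By array their median deviations were 0.09, -0.05 and -0.14 in PGC-1αf/f and 0.03, -0.07 and 0.15 in mPGC-1α samples, the same order of arrays within each group as for the ribosomal protein genes. The 22 initiation and elongation factors outside that list had a median of 0.037 (-0.034 under quantile normalization), and 1 was at an unadjusted p under 0.05 and lower, where 9.21% of all tested probes were. That was the release factor Gspt1, named after its values were seen, at -0.48 (limma adjusted p = 0.227) with groups that did not overlap. The highest fitted change there was 0.27, for the initiation factor subunit Eif3i. The lowest fitted change there, -1.19 for Eif2s3x, an X-linked initiation factor subunit, rested on the array of mPGC-1α replicate 3 at -1.12, where the other arrays gave 1.45 to 2.70, and without both arrays numbered 3 it was 0.12. The 5 tested snoRNA host genes with TOP transcripts had changes from 0.09 (Snhg1) to 0.24 (Snhg6), and none passed the test.

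Of 31 ribosome biogenesis factors, 0 passed the test and 24 had fitted changes above 0, with a median of 0.06. Under quantile normalization 23 of 31 lay above 0 (median 0.064), and without both arrays numbered 3 21 of 30 did (median 0.069). With each array shifted by its median 10 were above 0 and 21 below, but that scaling moved the median of all tested probes to -0.14. Bysl, needed to release the small subunit precursor, gave -0.11, -0.18 and -0.36 in PGC-1αf/f samples and 0.11, 0.34 and 0.05 in mPGC-1α samples, a difference of 0.38 (SE 0.14, limma adjusted p = 0.271). Bysl and Wdr43, the latter at 0.28 and named after its values were seen, were at an unadjusted p under 0.05. That is 2 of 31, both higher, where 16.7% of all tested probes were (7.53% on the higher side). Mdn1, the large ATPase that remodels large subunit precursors, had the lowest change, -0.37 (adjusted p = 0.345). The 11 tested genes of RNA polymerase I transcription had changes from -0.22 (Ttf1) to 0.20 (Taf1d), with a median of -0.0069. Over the alternatives this median ran from -0.14 with the median shift to 0.125 with the mean over a gene's probes. Of 9 tested genes of ribosome rescue and quality control, Ankzf1 at -0.39 and Gtpbp2 at -0.36 were at an unadjusted p under 0.05 and did not overlap between groups, with adjusted p of 0.251 and 0.286, and Gtpbp2 was named after its values were seen. These are 2 of 9, where 16.7% of all tested probes passed and 25.2% did not overlap. Both genes were lower, and on the lower side these shares were 9.21% and 13.7%. The highest there was Ltn1, at 0.16.

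In the mTORC1 pathway with LARP1, 16 genes were tested, with a median of -0.09 and 0 past the test. Eif4ebp1, the inhibitor of cap-dependent initiation that mTORC1 phosphorylates, gave 1.07, 1.37 and 1.19 in PGC-1αf/f samples and 1.54, 1.70 and 1.83 in mPGC-1α samples. The groups did not overlap, and the difference was 0.48 (SE 0.15, limma adjusted p = 0.216). Eif4ebp2 of the same list, named after its values were seen, went the other way. It gave 1.92, 1.73 and 1.81 against 1.56, 1.56 and 1.55, also without overlap, a difference of -0.26 (SE 0.12, limma adjusted p = 0.335). The lowest was Larp4 at -0.40, from 4 values. Of 13 factors tied to transcription of ribosomal protein genes, Ppargc1a had the highest fitted change. Mycn, fitted at -1.14, was well above background on 3 control arrays and on 1 of 3 mPGC-1α arrays, so that it was tested only through the group in which it was high. Its value is given as a description. The median of these factors was -0.085, and 0 passed the test. In the 12 factors well above background on all 6 arrays it was -0.049. Without both arrays numbered 3 the median was 0.053. It also lay above 0 without PGC-1αf/f replicate 2 (0.023), PGC-1αf/f replicate 3 (0.053) or mPGC-1α replicate 3 (0.042). Leaving out any other single array gave -0.30 to -0.11.

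**Figure D5:**
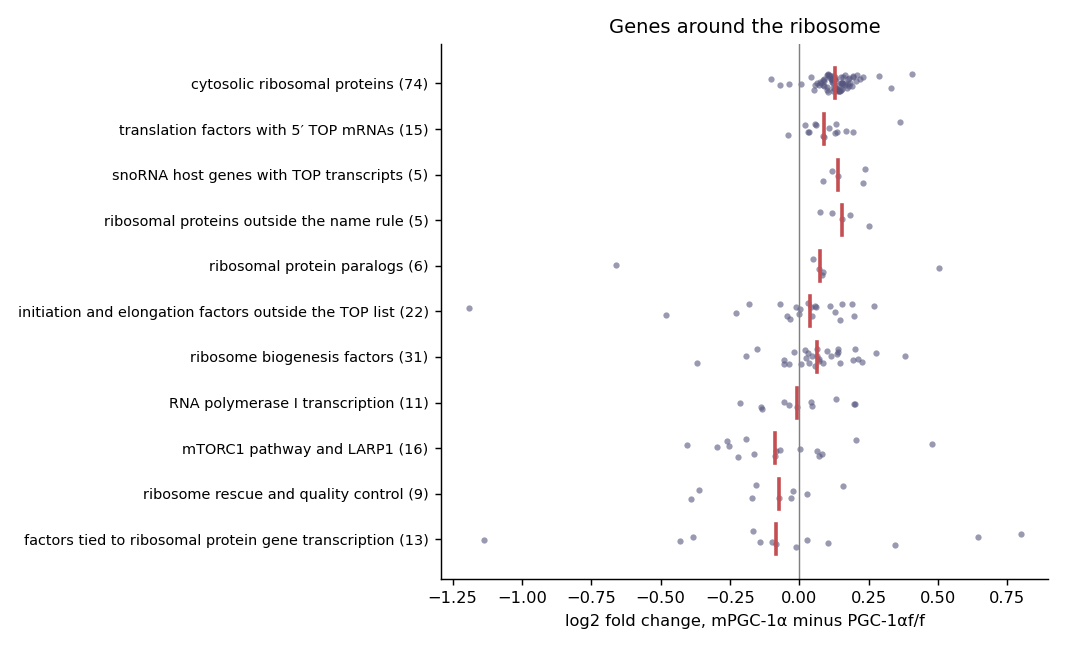
Log2 fold change (mPGC-1α minus PGC-1αf/f, horizontal axis) of every tested gene in the ribosomal protein set and 10 related lists, with the number tested in brackets and a red bar for each median. The ribosomal protein genes lie in a narrow band around 0.13, and the lists of factors spread from -1.19 to 0.80.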

How the data were processed

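Microglia of 3 PGC-1αf/f and 3 mPGC-1α samples were profiled on 1-colour Agilent mouse 8 × 60K arrays. The authors labelled amplified product with Cy5 and deposited, per spot, the red-channel intensity from Feature Extraction 11.5.1.1 after background subtraction and spatial detrending within the array. The whole-series table deposited by the authors holds the same intensity without normalization between arrays. According to the study's methods, arrays were normalized in GeneSpring, and no gene-wise test is described there.

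Here, the deposited intensity was turned into log2 values and shifted so that the 75th percentile of 59305 non-control spots was 0 on every array. Outlier spots were dropped and spots of a probe averaged. A probe passed the background test on an array if a share of 0.5 or more of its spots carried the scanner mark for signal well above background. Probes that passed on each array of 1 group or of both were tested, 25333 of 56605, of which 25257 gave a p-value. Linear models with moderated variances came from limma 3.58.1 (lmFit, then eBayes), without covariates and with two-sided p-values, in R 4.3.3 with the data.table package (version 1.17.8). The Benjamini-Hochberg adjustment ran over all of these p-values, at a threshold of 0.05. Array number limits the precision. The procedure was checked on simulated data. Probes were named through their transcript accession in a RefSeq table of GRCm38.p6, which gave a single symbol for 33767 probes. Pandas 2.3.3, numpy 2.4.6 and matplotlib 3.10.9 in Python 3.11.15 were used for tables and figures.

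Groups and replicate numbers came from the labels. The members, the gene lists and the rule for naming genes were chosen with earlier results of these data known. The rule named members past the threshold, the 6 highest and 6 lowest changes among members measured on all arrays, the P stalk, the 5S particle, qPCR reference genes, untested members, the 3 genes with the furthest-apart probes, ribosomal proteins outside the naming scheme, paralogs, and the highest and lowest gene of each other list. Values of 3 genes that the rule names are not reported here. Alternatives were other normalizations (quantile, median, normexp with an offset of 50, none), other filters, the replicate block, array weights, a trended robust prior, the slide column as a random block, the mean over a gene's probes and leaving out arrays. Keeping outlier spots was an alternative chosen after seeing the data.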

Additional observations from a re-analysis of the deposited data

How the results depend on the processing

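No ribosomal protein gene passed a limma adjusted p of 0.05 under any of the 19 alternatives, and the lowest adjusted p was 0.0937, with array weights. The count at an unadjusted p under 0.05 was 1 as reported, 0 under quantile normalization, normexp with quantile normalization, the median shift, the table as deposited, the fit of dim and bright probes alike, the trended robust prior (64 genes fitted) and without both arrays numbered 3, and 0 to 1 when single arrays were left out. The median log2 fold change of the genes, 0.13 as reported, was above 0 in 17 alternatives and below 0 in 2, at -0.0025 with the median shift and -0.025 without both arrays numbered 3. It was 0.0066 under quantile normalization, 0.0080 under normexp with quantile normalization, 0.091 in the deposited table, 0.064 with array weights, 0.091 with slide column as a random block, and between 0.045, when PGC-1αf/f replicate 3 was left out, and 0.21, when PGC-1αf/f replicate 1 was. The correlations of same-numbered deviations were 0.14, 0.13 and 0.019 for replicates 1 to 3. Without values for differently numbered arrays to set beside them, they cannot decide whether replicate numbers pair the samples. Arrays numbered 1 and 2 shared a slide column between the groups, and those numbered 3 did not. With slide column as a random block 138 of all tested probes passed the adjusted threshold, against 20 as reported. The fit with the replicate block gave a median of 0.14 and 0 genes at an unadjusted p under 0.05.

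Of the 20 ribosomal protein genes that the naming rule picked and that are reported, 7 kept their sign in every alternative (Rpl4, Rpl9, Rpl19, Rpl29, Rps2, Rps18 and Rps19), as did 17 of 29 other named genes, Rps27l, Rpl39l and Cdkn1a among them. Members named outside the rule, Rpl27 among them, are not in this tally. Cdkn1a passed the adjusted threshold in 15 of 19. Rpl39l passed it with array weights alone, as did Mycn, whose value is given only as a description. The following log2 fold changes took the other sign, and the cause was not tested. Under quantile normalization, the value was -0.12 for Rpl30, -0.085 for Rps6, -0.065 for Rpl15, -0.049 for Rps20, -0.045 for Rpl7, -0.027 for Rpl11, -0.058 for Rpl32, -0.022 for Rps29, -0.042 for Rps3a1, -0.020 for Rack1 and -0.053 for Rpl36al. With each array shifted by its median, the value was -0.13 for Rpl30, -0.091 for Rps6, -0.078 for Rpl15, -0.067 for Rps20, -0.063 for Rpl7, -0.015 for Rplp0, -0.012 for Rplp2, -0.043 for Rpl11, -0.10 for Rpl32, -0.032 for Rps29, -0.058 for Rps3a1, -0.0098 for Rack1, -0.051 for Rpl7l1, -0.047 for Rpl22l1, -0.064 for Rpl36al, -0.082 for Rps4l and -0.057 for Snhg1. Under normexp with quantile normalization, the value was -0.12 for Rpl30, -0.078 for Rps6, -0.069 for Rpl15, -0.021 for Rps20, -0.069 for Rpl11, -0.096 for Rpl13a, -0.053 for Rpl32, -0.11 for Rps29, -0.078 for Fau, -0.20 for Rack1 and -0.037 for Rpl36al. In the deposited table without normalization, the value was -0.028 for Rpl30 and 0.016 for Rpl5. With the replicate block, the value was 0.55 for Rpl5 and 0.012 for Larp4. With array weights, the value was -0.045 for Rpl11, -0.067 for Rpl32 and -0.043 for Rpl36al. With slide column as a random block, the value was -0.0073 for Rpl30. With the mean over the tested probes of a gene, the value was -0.24 for Ltn1 and 0.056 for Eef1a1. Without both arrays numbered 3, the value was -0.047 for Rpl30, -0.024 for Rps6, -0.068 for Rpl15, -0.13 for Rps20, -0.13 for Rpl7, -0.032 for Rplp1, -0.039 for Rplp2, -0.12 for Rpl11, -0.20 for Rpl32, -0.041 for Rps29, -0.0013 for Fau, -0.0026 for Rps3a1, -0.11 for Rack1, -0.013 for Rpl7l1, -0.12 for Rpl36al, -0.028 for Rps4l and 0.12 for Eif2s3x. When single arrays were left out, values ran from -0.18 to 0.066 for Eef1a1, -0.055 to 0.29 for Rack1, -0.019 to 0.20 for Rpl11, -0.014 to 0.12 for Rpl15, -0.051 to 0.049 for Rpl30, -0.16 to 0.27 for Rpl32, -0.037 to 0.17 for Rpl36al, -0.49 to 0.35 for Rpl5, -0.048 to 0.21 for Rpl7, -0.069 to 0.18 for Rpl7l1, -0.055 to 0.20 for Rps20, -0.024 to 0.17 for Rps3a1, -0.15 to 0.24 for Rps4l and -0.045 to 0.12 for Rps6.

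Precision was limited by 3 arrays a group. The median standard error of 0.15 exceeded the reported median change of 0.13, so that changes of that size were not detectable gene by gene.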
